A study of Mus musculus with 6 samples.

Results

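The ionotropic glutamate receptor subunit genes Grin1, Grin2a, Grin2b, Grin2c, Grin2d, Grin3a, Gria1, Gria2, Gria3 and Gria4 were followed in the postnatal mouse brain with and without an activated human SRY transgene. They were taken by symbol, as 10 listed genes, and 9 of them had probes in the deposited table, 15 probes out of 25697 under 18138 gene symbols. Grin3a was not analysed here. Whole brains of male FVB mice at postnatal day 6 were hybridized to bead arrays, 3 for hSRY-OFF and 3 for hSRY-ON. By the definitions in the methods, both groups carried, once per genome and at the H11 locus, the Signalox-hSRY transgene, in which the CAG promoter drives DsRed2 until Cre removes it. In hSRY-OFF the transgene was unrecombined, and in hSRY-ON it had been recombined in the early embryo by Cre carried over from the oocyte of a Ddx4-Cre mother, so that FLAG-tagged human SRY and EGFP were expressed under CAG throughout the body. Elsewhere the study also took littermates lacking this transgene as controls, and the labels give no genotype for the control arrays beyond hSRY-OFF. The hSRY-ON mice chosen for the arrays did not themselves carry Ddx4-Cre. The model rests on 1 responder line, and the pups are growth retarded by this age. The methods give 3 mice for each group, and the p-values measure the spread between these samples.

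Fast excitatory transmission in the brain runs through AMPA receptors, assembled from the products of Gria1 to Gria4, and NMDA receptors, which need the subunit of Grin1 together with subunits of the Grin2 or Grin3 genes. NMDA receptors of the young brain are rich in the products of Grin2b, Grin2d and Grin3a, and those of Grin2a and Grin2c join as synapses mature, Grin2c mainly in the cerebellum. The set therefore allowed the early subunits to be compared with the late ones in hSRY-ON and hSRY-OFF brains.

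None of the 6 subunit genes that could be tested, Grin1, Grin2b, Grin2c, Gria1, Gria2 and Gria3, passed the test for a difference between the genotypes. At an adjusted p under 0.05, 0 of the 11 subunit probes that could be tested were called, while 308 of 14215 tested probes (2.17%) were called across the array. At an unadjusted p under 0.05 there was 1 subunit probe of 11 (9.09%), against 20.9% of all tested probes. The arrays of the genotypes did not overlap for 1 subunit probe, against 27.7% of all tested probes. Every log2 fold change is hSRY-ON relative to hSRY-OFF, negative where hSRY-ON was lower. Their median was -0.03 for the 11 subunit probes and 0.0048 for the whole array as tested. All 4 tested NMDA receptor probes leaned to the lower side and the 7 tested AMPA receptor probes were divided, 4 leaning higher and 3 lower, with none of them called, and 7 of the 11 turned sign when single arrays were left out. The lean of the NMDA probes depends on which were admitted. Both Grin1 probes are among them, at -0.61 and -0.03. Grin2b passed the filter mainly through hSRY-OFF, above background on 3 arrays there and on 1 in hSRY-ON. With no filter on dim probes, Grin2d leaned higher at 0.05 and Grin2a lower at -0.10, both at background.

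How far these genes could be read depended on their signal. A probe was taken as above background on an array when its detection p-value, which ranks it among the negative-control beads, was under 0.05, and it was tested when this held on at least 3 of the 6 arrays. The negative controls averaged 160 to 174 in intensity, with an SD of 13.1 to 14.7, and the median probe lay between 200 and 220. Of the 15 subunit probes, 8 were above background on all 6 arrays, 4 on some and 3 on none. Of 9 probes for general neuronal markers, the 7 of Syt1, Tubb3, Map2, Nefm and Eno2 were above background on all 6 arrays. Those of Snap25 and Nefl, which neurons express in abundance, were above background on 0 of 6, so a probe at background does not show that its gene was silent.

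**Figure D1:**
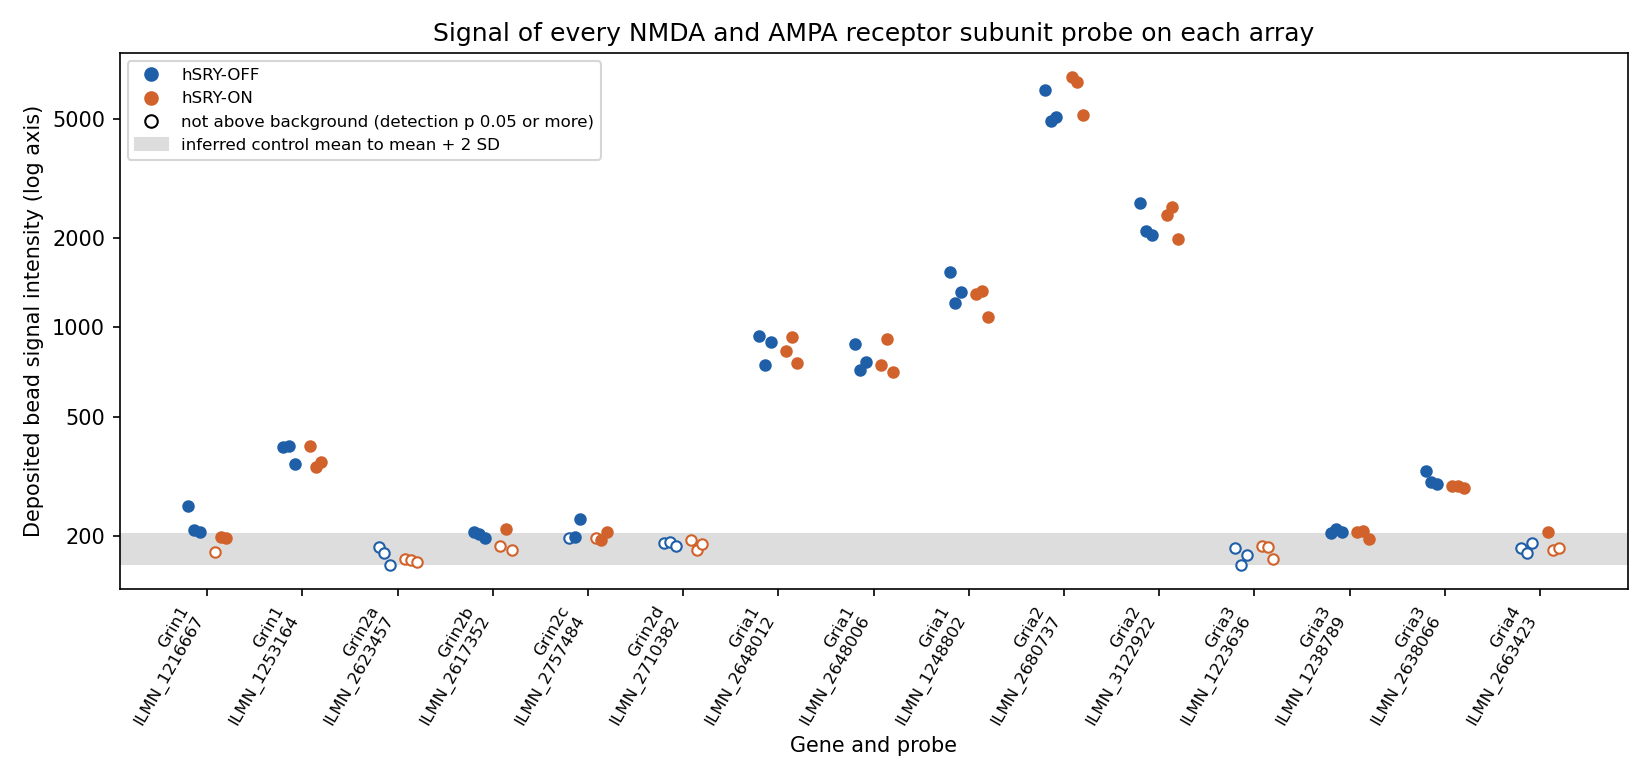
Deposited bead signal intensity (log axis) of the 15 subunit probes on each of the 6 arrays, blue for hSRY-OFF and orange for hSRY-ON, with open points where the detection p-value was 0.05 or more and a grey band from the mean of the inferred negative controls to 2 SD above it. The probes of Gria1 and Gria2 stand between 711 and 6905, while those of Grin2a, Grin2b, Grin2c, Grin2d and Gria4 lie between 160 and 227, beside the controls.

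SRY binds DNA through an HMG box that recognises the letters AACAAT, with ACAAT as a core shared with Sox proteins. Promoter windows of 300 bases ran from 250 before to 50 after a gene's start in RefSeq (GRCm38.p6). They were at hand for 5 of the 10 genes, Grin1, Grin2c, Grin2d, Gria2 and Gria4, and those of the other members were not analysed here. Neither AACAAT nor its reverse complement ATTGTT stood in any of the 5, and 10.7% of 32851 mouse promoter windows of the same length held one of them. The shorter ACAAT or ATTGT, which is contained in the longer letters and was chosen after the windows had been read, stood in 31% of all windows and in 1 of the 5, that of Grin1. The windows of Grin1, the obligatory NMDA receptor gene, at chr2:25319138-25319437 (minus strand), and of Gria2, the AMPA receptor gene with the brightest probe, at chr3:80802786-80803085 (minus strand), are printed to show this, in lower case with ACAAT in capitals.
Grin1: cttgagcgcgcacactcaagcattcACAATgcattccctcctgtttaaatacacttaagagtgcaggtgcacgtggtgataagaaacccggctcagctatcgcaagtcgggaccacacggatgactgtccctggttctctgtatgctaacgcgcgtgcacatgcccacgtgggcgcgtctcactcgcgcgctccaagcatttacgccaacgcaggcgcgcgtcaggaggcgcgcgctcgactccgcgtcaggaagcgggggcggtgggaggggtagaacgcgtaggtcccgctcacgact
Gria2: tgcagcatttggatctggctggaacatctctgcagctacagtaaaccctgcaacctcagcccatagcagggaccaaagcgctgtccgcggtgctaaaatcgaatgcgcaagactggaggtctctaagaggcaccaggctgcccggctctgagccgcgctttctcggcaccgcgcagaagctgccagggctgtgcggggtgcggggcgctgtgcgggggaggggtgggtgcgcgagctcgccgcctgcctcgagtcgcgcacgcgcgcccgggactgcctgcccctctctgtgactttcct
Both windows were rich in CpG, with 33 CpG dinucleotides and 60.7% G and C for Grin1 and 26 and 65.7% for Gria2. A stretch of letters is no measured site, and its absence from a window says nothing of binding elsewhere.

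Grin1 encodes the subunit present in every NMDA receptor, and its 2 probes gave different answers. At probe ILMN_1253164, the brighter, hSRY-OFF arrays 1 to 3 read 7.72, 7.995 and 7.69 in normalized log2 signal, and hSRY-ON arrays 1 to 3 read 7.93, 7.66 and 7.73. The genotypes overlapped, with hSRY-OFF array 2 the highest and hSRY-ON array 2 the lowest of the 6. The log2 fold change was -0.03 (adjusted p 0.917, SE 0.12), and its 95% interval ran from -0.31 to 0.25. At the dimmer ILMN_1216667 the values were 6.41, 5.89 and 5.86 in hSRY-OFF and 4.91, 5.80 and 5.62 in hSRY-ON. Here all 3 hSRY-ON arrays lay below all 3 hSRY-OFF arrays, the one subunit probe without overlap, and hSRY-ON array 1 was not above background at a detection p-value of 0.241. The log2 fold change was -0.61 (SE 0.25, unadjusted p 0.0462, adjusted p 0.230), with a 95% interval of -1.21 to -0.01. Without background correction it was -0.18, and when single arrays were left out it ran from -0.79, for hSRY-ON array 2, to -0.34, for hSRY-ON array 1. The difference between the probes was not tested.

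Among the early subunits, Grin2b encodes the main NMDA receptor subunit of the newborn forebrain. Its only probe, ILMN_2617352, read 5.50, 5.76 and 5.62 in hSRY-OFF and 5.12, 6.07 and 5.06 in hSRY-ON on the normalized log2 scale. The 3 hSRY-OFF arrays were above background, whereas in hSRY-ON this held for array 2 alone, which was also the highest of the 6. The log2 fold change was -0.21 (adjusted p 0.692, SE 0.26) and the 95% interval, -0.82 to 0.40, was wide. The value moved when an hSRY-ON array was left out, to -0.06 for array 1, -0.03 for array 3 and -0.53 for array 2, in which case neither remaining array of the group was above background. It was -0.05 without background correction, and it passed the threshold in none of these fits (adjusted p 0.0909 to 0.954).

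Grin2d, whose product gives slowly decaying NMDA currents and is found early in brainstem and midbrain, was not above background on any array. Its deposited intensities were 188, 190 and 185 in hSRY-OFF and 193, 178 and 187 in hSRY-ON, with detection p-values of 0.0551 to 0.152. No fold change can be given for it.

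Of the late subunits, Grin2a, which largely takes over from Grin2b in forebrain synapses as they mature, was likewise at background. Its intensities were 183, 175 and 160 in hSRY-OFF and 167, 166 and 164 in hSRY-ON, at or near the control mean, and its detection p-values ran from 0.190 to 0.553. Grin2c, the subunit of mature cerebellar granule cells, was above background on 2 arrays of each genotype. On the normalized log2 scale it read 5.28, 5.64 and 6.34 in hSRY-OFF and 5.46, 5.68 and 5.87 in hSRY-ON, with the hSRY-ON arrays inside the range of hSRY-OFF. Its log2 fold change was -0.08 (adjusted p 0.889, SE 0.26, 95% interval -0.69 to 0.53), and the sign turned without hSRY-OFF array 3, to 0.21, and without hSRY-ON array 1, to 0.02.

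The comparison of early with late subunits came down to Grin2b against Grin2c, the only early and the only late gene with a tested probe. With the log2 signal of Grin2c subtracted from that of Grin2b, hSRY-OFF arrays 1 to 3 gave 0.22, 0.12 and -0.72, and the hSRY-ON arrays gave -0.34, 0.39 and -0.81. The hSRY-OFF mean was -0.13 ± 0.52 (SD, n = 3), and the hSRY-ON mean was -0.25 ± 0.60 (SD, n = 3). Only the change between the genotypes can be read from it, since the signals of different probes have no common scale. That change, -0.13, was smaller than the spread within either genotype, and it ran from -0.45 to 0.15 when single arrays were left out. With all probes admitted, so that Grin2b and Grin2d were set against Grin2a and Grin2c, the change was 0.0092, where Grin2a and Grin2d added values at background. No test was made of this difference. A shift from early to late subunits, or a delay of it, was thus not detectable on these probes at this signal.

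**Figure D2:**
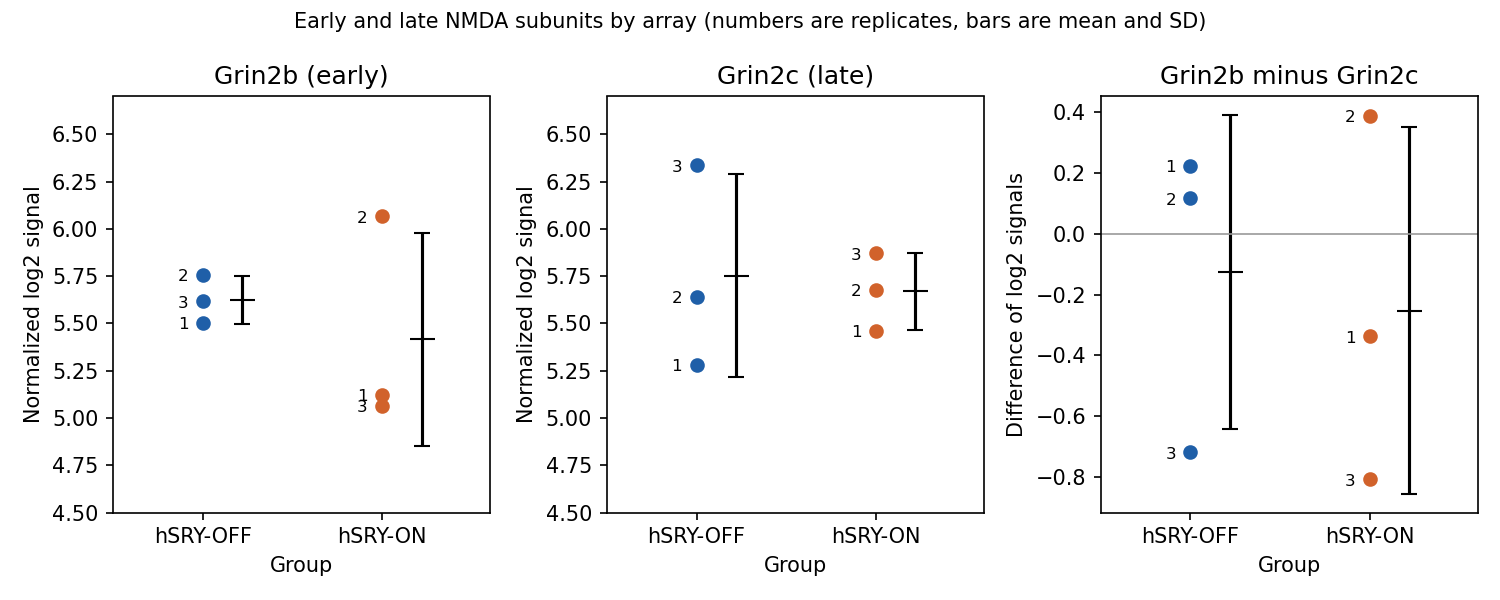
Normalized log2 signal of Grin2b (left) and Grin2c (middle) and their difference (right) on each array, numbered by replicate, with the mean and SD of each genotype beside the points. The difference overlapped between hSRY-OFF (-0.72 to 0.22) and hSRY-ON (-0.81 to 0.39).

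The AMPA receptor genes Gria1 and Gria2 had the brightest probes of the set. Gria2, which encodes the subunit that keeps calcium out of the channel, was brightest at ILMN_2680737, with normalized log2 signals of 12.41, 12.25 and 12.32 in hSRY-OFF and 12.70, 12.76 and 12.31 in hSRY-ON. Arrays 1 and 2 of hSRY-ON lay above every hSRY-OFF array, and hSRY-ON array 3 lay among them. The log2 fold change was 0.26 (adjusted p 0.302, SE 0.13) with a 95% interval of -0.05 to 0.57, a ratio of hSRY-ON to hSRY-OFF of 0.968 to 1.49. When single arrays were left out it ran from 0.18, without hSRY-ON array 2, to 0.40, without hSRY-ON array 3, and it passed the threshold in none of the other fits (adjusted p 0.0728 to 0.531). The other Gria2 probe, ILMN_3122922, read 11.09, 10.95 and 10.94 in hSRY-OFF and 11.09, 11.31 and 10.89 in hSRY-ON, with a log2 fold change of 0.10 (adjusted p 0.676, SE 0.12, 95% interval -0.18 to 0.38).

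Gria1, a subunit of AMPA receptors that are inserted during synaptic plasticity, was read by 3 probes. ILMN_1248802 gave 10.23, 10.06 and 10.26 in hSRY-OFF and 10.13, 10.29 and 9.95 in hSRY-ON. ILMN_2648012 gave 9.42, 9.24 and 9.60 in hSRY-OFF and 9.39, 9.68 and 9.33 in hSRY-ON. ILMN_2648006 gave 9.31, 9.18 and 9.33 in hSRY-OFF and 9.19, 9.65 and 9.19 in hSRY-ON. The genotypes overlapped at each probe, and hSRY-ON array 2 was the highest of the 6 at all 3. The log2 fold changes were -0.06, 0.05 and 0.07 in the same order, with adjusted p of 0.804, 0.868 and 0.818. The 95% intervals together ran from -0.32 to 0.40, so a doubling or a halving of the Gria1 signal lies outside them.

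Gria3 and Gria4 were dimmer. For Gria3, probe ILMN_2638066 gave 7.26, 7.27 and 7.28 in hSRY-OFF and 7.13, 7.26 and 7.18 in hSRY-ON, with the least spread of the set. Its log2 fold change was -0.08 (adjusted p 0.603, SE 0.08, 95% interval -0.26 to 0.10), and arrays 1 and 3 of hSRY-ON lay below every hSRY-OFF array. ILMN_1238789 gave 5.48, 5.94 and 5.89 in hSRY-OFF and 5.73, 6.02 and 5.55 in hSRY-ON, a log2 fold change of -0.0010 (adjusted p 0.998, SE 0.17). The remaining Gria3 probe, ILMN_1223636, was not above background on any array, with intensities of 160 to 185. Gria4, whose product forms fast AMPA receptors, was above background on hSRY-ON array 1 alone, at an intensity of 206, while the other 5 arrays read 175 to 189, and it was not tested.

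**Figure D3:**
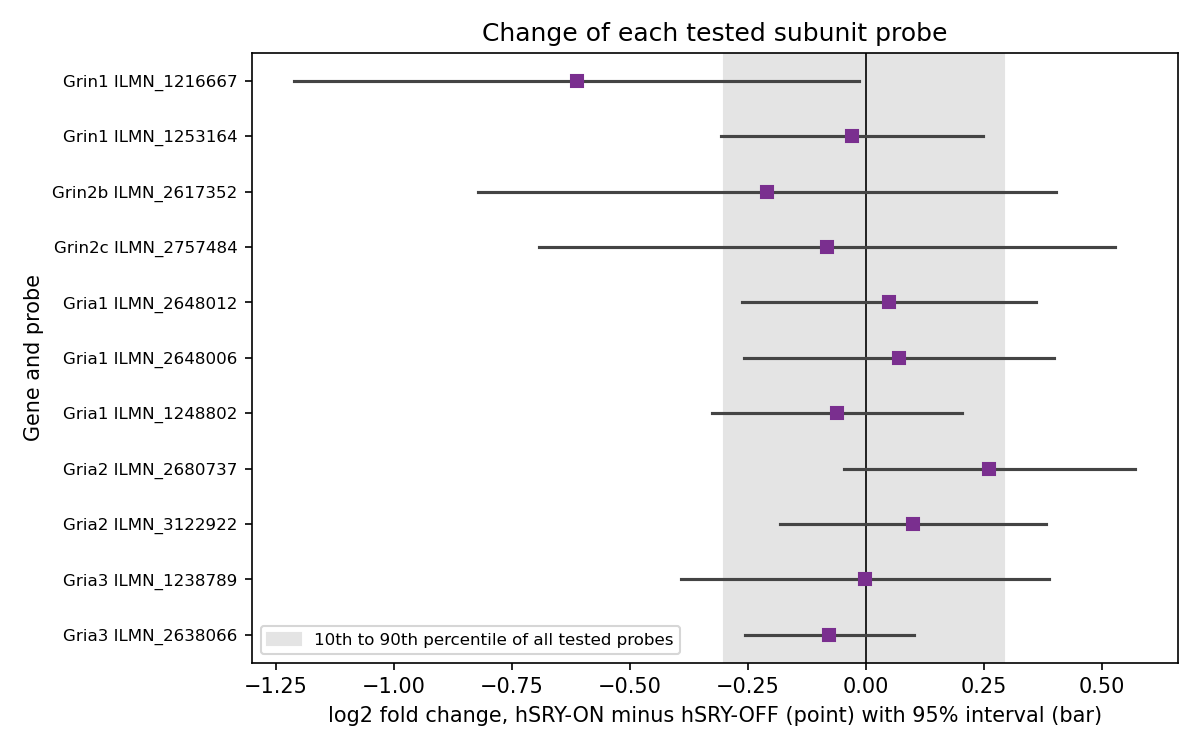
Log2 fold change of each of the 11 tested subunit probes (point) with its 95% interval (bar), over a grey band from the 10th to the 90th percentile of all 14215 tested probes (-0.30 to 0.29). Only the interval of the dim Grin1 probe leaves out 0, and its point alone lies outside the band.

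The error was larger for dim probes across the array. When all tested probes were put into 4 equal classes of brightness, the SE had a median of 0.17 in the dimmest, with normalized log2 signals of 5.18 to 6.78, and of 0.085 in the brightest, from 10.37 upward. The dim Grin1 probe, Grin2b and Grin2c, with SEs of 0.25 to 0.26, exceeded the median of the dimmest class, and the bright Gria2 probe, at 0.13, exceeded that of the brightest. Among the subunits themselves the error did not simply follow brightness, since the smallest SE, 0.08, was that of Gria3 ILMN_2638066.

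Other genes of glutamate signalling were then read, in 7 lists with 53 genes, of which 43 had probes in the table and 35 had tested ones. Of their 51 tested probes 0 were called in limma, where 2.17% of all tested probes were, and 9 (17.6%) had an unadjusted p under 0.05, 2 higher and 7 lower, where 20.9% of all tested probes did. Their median log2 fold change was 0.0041.

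Of the other ionotropic receptor subunits, the kainate receptor genes Grik1, Grik4 and Grik5 had log2 fold changes of 0.07, 0.18 and 0.10 (adjusted p 0.652, 0.699 and 0.589), and 0 of the 4 tested probes had an unadjusted p under 0.05. Of 13 tested probes for auxiliary subunits, which carry AMPA and kainate receptors to the synapse and set their kinetics, 1 had an unadjusted p under 0.05. It belonged to Cacng3, which encodes the transmembrane AMPA receptor regulatory protein gamma-3. At ILMN_1248692 the Cacng3 log2 signal did not overlap, at 8.82 ± 0.06 for hSRY-OFF against 8.40 ± 0.08 for hSRY-ON (SD over 3 arrays). Its log2 fold change of -0.42 (SE 0.08) had an adjusted p of 0.0527, just short of the threshold, and it passed in 3 of 12 other fits (adjusted p 0.0103 to 0.156). The other Cacng3 probe, ILMN_2843891, had a log2 fold change of 0.14 (adjusted p 0.531) on the opposite side, and that of Cacng5 at ILMN_2812240 was -0.10 (adjusted p 0.500).

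Among 12 tested probes for anchoring and trafficking proteins, 2 had an unadjusted p under 0.05. Grip1, a PDZ protein that holds Gria2 and Gria3 subunits, leaned higher at ILMN_2685318, with a log2 fold change of 0.35 (adjusted p 0.0838, SE 0.08), and passed in 3 of 12 other fits (adjusted p 0.0145 to 0.233), while its other tested probe stood at 0.10 (adjusted p 0.561). Camk2a, the synaptic kinase that phosphorylates Gria1, had a log2 fold change of -0.23 at ILMN_2677393 (adjusted p 0.219) and of -0.21 at ILMN_2596479 (adjusted p 0.270), and Dlg4, which encodes the scaffold PSD-95, had -0.27 (adjusted p 0.248). The metabotropic receptor genes Grm7 and Grm8, whose products damp glutamate release, had log2 fold changes of -0.14 and -0.22, with adjusted p of 0.403 and 0.314.

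Of 9 tested probes for glutamate transporters, 3 had an unadjusted p under 0.05. Slc17a7, the vesicular transporter of mature forebrain and granule cell terminals, had log2 signals of 11.84 ± 0.12 for hSRY-OFF against 11.21 ± 0.23 for hSRY-ON (SD over 3 arrays), without overlap. Its log2 fold change of -0.63 (adjusted p 0.0595, SE 0.13) was the most negative of the 51 probes, and it passed in 4 of 12 other fits (adjusted p 0.0016 to 0.167). Slc17a6, the vesicular transporter of younger and subcortical neurons, had a log2 fold change of 0.05 (adjusted p 0.796). The neuronal uptake carriers Slc1a1 and Slc1a6 stood at 0.47 (ILMN_1229397, adjusted p 0.136) and -0.26 (adjusted p 0.171), and the brighter Slc1a1 probe, ILMN_1225873, at -0.04 (adjusted p 0.860). Without background correction, Slc1a1 ILMN_1229397 stood at 0.26 and Slc1a6 at -0.12.

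Among 5 tested probes for enzymes that add or remove phosphate on NMDA receptors or their partners, 1 had an unadjusted p under 0.05, that of the phosphatase gene Ptpn5 (log2 fold change -0.27, adjusted p 0.219). Ptk2b and Csnk2a1 stood at -0.19 (adjusted p 0.313) and 0.16 (adjusted p 0.662). Adarb1, the enzyme that edits the pore codon of the Gria2 transcript, had log2 fold changes of -0.50 at ILMN_1243711 (adjusted p 0.0720, SE 0.12), -0.28 at the brighter ILMN_3105343 (adjusted p 0.190) and 0.05 at ILMN_3036678 (adjusted p 0.896). Both of the first passed in other fits, 3 and 1 of 12 (adjusted p 0.0380 to 0.196 and 0.0495 to 0.422), and the first value was -0.24 without background correction. The other editing enzyme named here, Adar, stood at 0.25 (ILMN_2704372, adjusted p 0.483, but 0.03 when hSRY-ON array 3 was left out), 0.01 (ILMN_3021272) and -0.17 (ILMN_3093622).

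**Figure D4:**
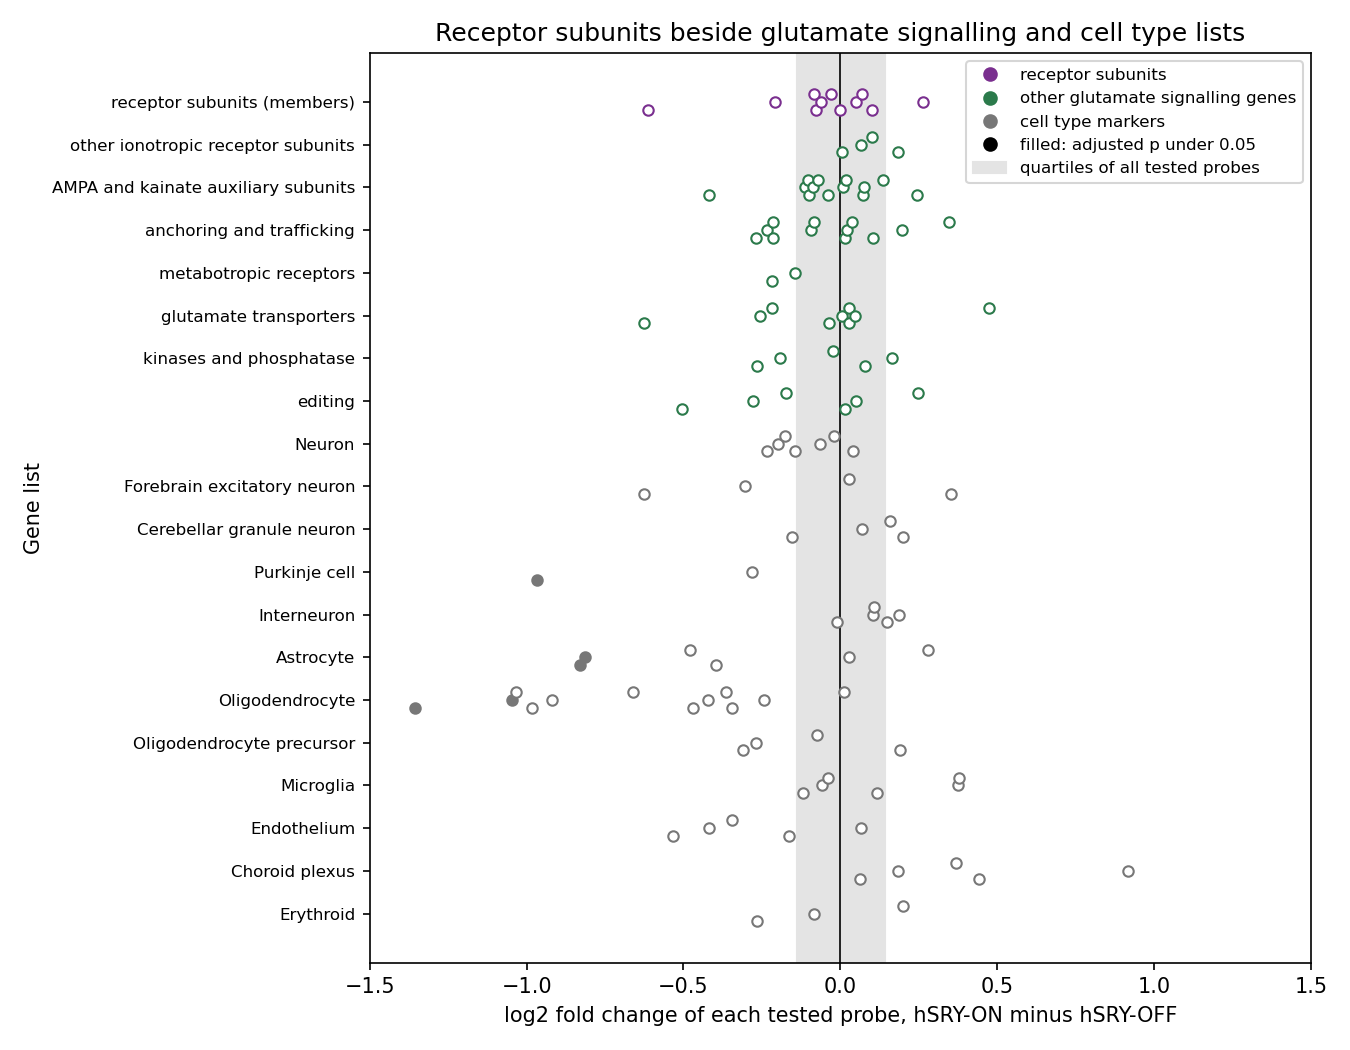
Log2 fold change, hSRY-ON minus hSRY-OFF, of each tested probe in the subunit list (purple), the 7 other glutamate signalling lists (green) and the cell type marker lists (grey), with filled points for an adjusted p under 0.05 and a band over the quartiles of all tested probes (-0.14 to 0.14). No purple or green point is filled, and the filled grey points are those of Pcp2, Gfap, Aqp4 and Mobp, all lower in hSRY-ON.

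Cell type markers were read beside these genes, where 2.17% of all tested probes were called and 20.9% had an unadjusted p under 0.05. The arrays of the genotypes did not overlap for 27.7% of all tested probes, and no such share was taken for list means. In whole brain RNA, fewer cells of a type and less RNA per cell cannot be told apart. Of the general neuronal markers 0 of 7 tested probes were called in limma, and 0 had an unadjusted p under 0.05. Their mean log2 signal was 10.84 to 10.93 on the hSRY-OFF arrays and 10.75 to 10.77 on the hSRY-ON arrays, lower and without overlap. Taken singly, 2 of these 7 probes did not overlap. The forebrain excitatory list, which shares Slc17a7 with the transporters, had a mean of 9.16 to 9.26 in hSRY-OFF and 9.06 to 9.09 in hSRY-ON, also lower and without overlap, with 0 of 4 tested probes called in limma (2 at an unadjusted p under 0.05). The cerebellar granule neuron list overlapped at 11.49 to 11.67 and 11.63 to 11.69, but it rested on Cbln1, Zic1 and Calb2, since the probes of Gabra6, Cbln3 and Neurod1 were not tested. The interneuron list overlapped as well, at 11.94 to 12.20 and 12.10 to 12.27. Called markers, all lower in hSRY-ON, were Pcp2 of Purkinje cells (log2 fold change -0.97, adjusted p 0.0243), Gfap and Aqp4 of astrocytes (-0.83, adjusted p 0.0308, and -0.81, adjusted p 0.0275) and 2 of 3 Mobp probes of oligodendrocytes (-1.36, adjusted p 0.0348, and -1.05, adjusted p 0.0225). These 5 probes stayed lower in every fit that left out 1 array (log2 fold changes of -1.54 to -0.76), but they passed the threshold in only 1 of those 6, the one without hSRY-ON array 3 (adjusted p 0.0219 to 0.113 over the 6), and in limma with a replicate block 0 probes were called on the whole array (2906 at an unadjusted p under 0.05). Of the other astrocyte markers, Aldh1l1 leaned lower at both probes, -0.48 and -0.40 (adjusted p 0.0834 and 0.422), while Aldoc leaned higher at 0.28 (adjusted p 0.105, all hSRY-ON arrays above all hSRY-OFF arrays) and the bright Slc1a3 stood at 0.03 (adjusted p 0.897). The Purkinje list rested on Pcp2 and Itpr1 (log2 fold change -0.28, adjusted p 0.114), since the probes of Calb1 and Pcp4 were not tested. The list means also did not overlap for Purkinje cells (11.27 to 11.49 in hSRY-OFF, 10.69 to 10.78 in hSRY-ON, 1 of 2 tested probes called, 2 at an unadjusted p under 0.05), astrocytes (10.56 to 10.70 and 10.17 to 10.32, 2 of 6 called, 4 unadjusted, 1 of these higher) and oligodendrocytes (10.05 to 10.56 and 9.57 to 9.66, 2 of 12 called, 8 unadjusted). Nor did they for the precursors of oligodendrocytes (9.62 to 9.66 and 9.48 to 9.59), where Olig1 and Olig2 stood at -0.27 and -0.31 and Pdgfra at 0.19 (adjusted p 0.160, 0.151 and 0.254), and for endothelium (8.42 to 8.57 and 8.13 to 8.31), or, higher in hSRY-ON, for microglia (7.56 to 7.66 and 7.69 to 7.77), where 3 of 6 probes, of Aif1 and Cx3cr1, leaned lower and 3, of Csf1r and C1qa, leaned higher, while those of erythroid cells overlapped. For choroid plexus they were 8.36 to 8.65 and 8.68 to 9.02, but this mean holds a probe of Kl that was above background on 0 hSRY-OFF and 3 hSRY-ON arrays, and over the 4 probes above background on all 6 arrays, a choice made after the data were seen, the genotypes overlapped (9.20 to 9.46 and 9.42 to 9.64). In the lists for precursors, endothelium, microglia, choroid plexus and erythroid cells limma called 0 of 23 tested probes, and 9 had an unadjusted p under 0.05. The part of these shifts in the values of the receptor genes was not tested.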

How the data were processed

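RNA of 6 whole brains had been labelled and hybridized to Illumina MouseRef-8 v2.0 arrays. The authors deposited, for each probe and array, a mean bead signal intensity with no normalization and a detection p-value in steps matching 798 control beads. The genome build of the probes and the scanner software are not given in the sources used here. For normalization and testing the paper used TCC in R, without stated settings, and the submitters' notes name limma. Intensities were corrected in R 4.3.3 with limma 3.58.1 (normexp with controls inferred from the detection p-values, offset 16), quantile normalized and put on the log2 scale, which spreads dim probes out. Probes detected (p-value under 0.05) on 3 or more arrays were fitted with lmFit and eBayes, group as the only term, two-sided, with Benjamini-Hochberg adjustment over all 14215. Every adjusted p is from this fit unless another is named. Intervals are the fit's 95% intervals. With 3 arrays per group, the number of arrays limits the precision.

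Subunits were matched by symbol. Map2 and Cnp1 of the marker lists were found as Mtap2 and Cnp. All subunit probes are given. Of the other lists, called probes were to be named and otherwise up to 3 per list with the lowest p, and a few further genes or probes were named beside them after their values were seen. One listed pathway gene is not reported here and was left out of the list counts. The members and lists were chosen with earlier results of these data known. The alternatives were other background corrections, normalizations, filters, priors, weights and thresholds, a replicate block, 1 probe per gene and leaving out each array. The steps were checked on simulated data. Plots were made in Python 3.11.15 (matplotlib 3.10.9).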

Additional observations from a re-analysis of the deposited data

How the results depend on the processing

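No subunit probe was called in any of the 17 alternatives, in which the lowest adjusted p among the subunits ran from 0.0728 to 0.410. The number of calls over all probes, 308, was 1317 without background correction, 860 with normexp on the signals and an offset of 50, 123 with no filter, 705 with a detection p-value under 0.01 asked on all 6 arrays, 1447 with a trend and robust prior, 480 with array weights and 999 at an adjusted p under 0.10. Leaving out single arrays gave 0 to 417 calls (in limma, 2236 to 3150 at an unadjusted p under 0.05), with the highest without hSRY-ON array 3 and 0 or 1 without any other. With the replicate block it was 0 in limma (2906 at an unadjusted p under 0.05). Same-numbered arrays deviated together only weakly (r 0.03 to 0.04 across probes, -0.02 to -0.01 for other pairs), so the numbers were not taken as pairs.

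The change in Grin2b minus Grin2c kept within 1 pooled SD of its main value throughout, but that SD, 0.56, is wide beside a change of -0.13. The change turned sign without hSRY-OFF array 1, to 0.05, and without hSRY-ON array 3, to 0.15, and was 0.0092 with no filter. In the replicate block it is -0.13 by construction. It had no value under the strict filter, which left neither probe. Some log2 fold changes turned sign when arrays were left out, with ranges of -0.11 to 0.067 (Grin1 ILMN_1253164), -0.32 to 0.21 (Grin2c), -0.057 to 0.14, -0.083 to 0.15 and -0.14 to 0.027 (Gria1 ILMN_2648012, ILMN_2648006 and ILMN_1248802), -0.0045 to 0.20 (Gria2 ILMN_3122922), -0.15 to 0.11 (Gria3 ILMN_1238789, also 0.0083 with median scaling), -0.017 to 0.32 (Csnk2a1) and -0.0070 to 0.39 (Grik4). These have no settled direction, and the cause was not tested. The probes of Grin2a, Grin2b, Grin2c, Grin2d and Gria4, and also Grin1 ILMN_1216667 and Gria3 ILMN_1223636, were not above background on every array.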
